A study of Homo sapiens with 4 samples.

Results

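The ErbB receptors EGFR, ERBB2 and ERBB3 and 6 of their ligands, AREG, EREG, TGFA, HBEGF, BTC and NRG1, were followed in RNA sequencing of A549 cells. These 9 genes were chosen by their symbol, as a receptor and ligand family, out of 57905 genes in the deposited count table. A549 is a long-established cell line from a human lung adenocarcinoma. The study made stable lines by lentiviral infection and sequenced 4 libraries, 1 per condition: scramble control (sc), shDCBLD2, empty vector and DCBLD2 overexpression. For overexpression, the DCBLD2 coding sequence was placed in a vector with blasticidin selection. The shRNA lines carry a vector with a puromycin marker, and the sequenced shDCBLD2 line is titled shD5, a name the sources used here do not tie to a hairpin sequence. No drug treatment is given for any of the 4 libraries, so the vector, the insert and the hairpin are the only differences the labels describe.

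With 1 library per condition there is no replicate, so every difference is between libraries and not between conditions. Levels are given as CPM, the counts of a gene per 1000000 counts of its library after TMM scaling, log2 ratios carry a prior count of 2, and 95% intervals are exact and cover counting error only. Counts on genes came to between 16601633 and 21537283 per library. The transcript of DCBLD2 itself stood at 504 CPM in sc and 197 CPM in shDCBLD2. It was at 242 CPM in the library labelled DCBLD2 overexpression and at 434 CPM in the vector library, with a log2 ratio of -0.84, so there the targeted gene went against the label. The labelled cell type was checked with epithelial markers: KRT8, KRT18, KRT19, EPCAM and CDH1 were all above 3 counts in every library. Fibroblast-like markers were above 3 counts for 3 or 4 of 8 genes in the other libraries and for 6 of 8 in the library labelled DCBLD2 overexpression, with summed levels of 34.7 to 55.1 CPM and 74.7 CPM. Most of these sums is COL1A1. In the same order, POSTN had 0 and 42 counts, COL1A2 0 to 17 and 67, and COL3A1 6 to 18 and 68. PDGFRB had 4 to 13 and 10, DCN 0 and 4, LUM 0 and 1, and FAP 0 in all. Of 5 blood-like markers 1 or 2 were above 3 counts, with summed levels of 3.48 to 20.9 CPM, and PTPRC, the defining one, had 0 counts in all 4 libraries. The 3 endothelial-like markers in the table had at most 2 counts together. A list of 5 genes abundant in A549 was present in every library, at 10006 to 15353 CPM. In bulk RNA, fewer cells of a type and less RNA per cell cannot be told apart.

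ErbB receptors are tyrosine kinases of the plasma membrane. A bound ligand brings receptors together in pairs, and the phosphorylated tails then recruit adaptors that feed the RAS/ERK and PI3K/AKT pathways. EGFR is the receptor of AREG, EREG, TGFA, HBEGF and BTC. ERBB2 has no known soluble ligand and acts as the preferred partner of the others, and ERBB3, whose own kinase is weak, binds NRG1 and couples strongly to PI3K. The ligands are made as membrane-bound precursors that metalloproteases such as ADAM17 and ADAM10 release. In lung adenocarcinoma EGFR is a frequent driver and drug target, and DCBLD2, a membrane protein, has been linked to EGFR signaling in glioma.

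Promoter windows of the members show what sequence lies at their starts. RefSeq windows on GRCh38.p14, each with 250 bases before and 50 bases after an annotated start, were found for 7 of the 9 members and came to 9 windows. ERBB3 and NRG1 had no window. The windows were searched on both strands for TGANTCA, as AP-1 motif, and TGACGTCA, the cyclic AMP response element (CRE). Here N is any base, which makes this a loose form of the AP-1 motif. The motifs do not overlap each other in these windows. AP-1 was searched as a transcription factor that acts downstream of ERK, and CRE as a common promoter element. Shown first are the windows of AREG (chr4:74444886-74445185, plus strand) and EREG (chr4:74364895-74365194, plus strand), neighbours on chromosome 4 whose transcripts were both lower in the library labelled DCBLD2 overexpression. The last window is that of a further annotated EGFR start (chr7:55109589-55109888, plus strand). Capitals mark the motif matches.
AREG: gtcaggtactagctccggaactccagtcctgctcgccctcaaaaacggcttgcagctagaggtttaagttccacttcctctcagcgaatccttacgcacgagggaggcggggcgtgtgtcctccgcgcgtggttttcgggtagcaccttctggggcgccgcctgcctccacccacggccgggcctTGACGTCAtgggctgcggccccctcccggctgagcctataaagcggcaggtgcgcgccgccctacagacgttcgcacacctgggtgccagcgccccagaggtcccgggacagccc
EREG: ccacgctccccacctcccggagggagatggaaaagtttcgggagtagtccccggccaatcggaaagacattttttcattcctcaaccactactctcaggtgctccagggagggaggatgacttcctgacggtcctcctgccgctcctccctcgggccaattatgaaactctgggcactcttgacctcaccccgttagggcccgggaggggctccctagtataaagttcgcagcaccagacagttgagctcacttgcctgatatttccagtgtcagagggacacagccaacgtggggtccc
EGFR, further start: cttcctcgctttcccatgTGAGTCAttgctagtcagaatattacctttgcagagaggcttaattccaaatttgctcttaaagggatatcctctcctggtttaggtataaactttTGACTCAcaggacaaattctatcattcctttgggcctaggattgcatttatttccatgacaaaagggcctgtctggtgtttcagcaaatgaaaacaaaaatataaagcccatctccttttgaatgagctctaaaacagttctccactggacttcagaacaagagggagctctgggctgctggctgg

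The AREG window holds a CRE that begins 65 bases before the start, a motif found in 1.85% of 35116 promoter windows. The EREG window holds neither motif. In the further EGFR window matches to the loose AP-1 motif begin 232 and 136 bases before the start, as TGAGTCA and TGACTCA. In the ERBB2 window a match begins 222 bases before the start, as TGATTCA. AP-1 matches were present in 7.71% of all windows. The windows of TGFA, HBEGF, BTC and the EGFR start not shown hold no match to these letters. A match is a description of sequence, and binding was not measured in these libraries.

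Among the receptors, EGFR and ERBB2 were abundant and ERBB3 was low. Per length, the deposited FPKM of EGFR was between 7.32 and 15.98, that of ERBB2 between 10.55 and 15.8, and that of ERBB3 between 0.3 and 2.18. EGFR and ERBB2 were nearly level in FPKM in the empty vector library, at 12.09 and 11.54. In the library labelled DCBLD2 overexpression ERBB2 was above EGFR, at 15.8 and 7.32, and in shDCBLD2 it was below, at 10.55 and 15.98.

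EGFR (ENSG00000146648) lies on chromosome 7, from 55086714 to 55324313. No build is named for the positions in the deposited table, here or for the genes that follow. EGFR stood at 182 CPM (3557 counts, 176 to 188) in sc, 207 CPM (4462 counts, 201 to 213) in shDCBLD2, 95.4 CPM (1575 counts, 90.8 to 100.3) in the library labelled DCBLD2 overexpression and 160 CPM (2934 counts, 154 to 166) in the vector library. The library labelled DCBLD2 overexpression was lowest by far, and the other 3 lay within a narrow band, although each step in their order had an interval excluding no change. Against its control, its log2 ratio was -0.74 (-0.83 to -0.66), and shDCBLD2 had 0.19 (0.12 to 0.25). Controls differed by -0.19 (-0.26 to -0.11), as much as shDCBLD2 differed from sc in size. The antisense gene EGFR-AS1, which overlaps EGFR, had at most 5 counts in any library.

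ERBB2 (ENSG00000141736), on chromosome 17 from 37844167 to 37886679, moved the other way. It stood at 123 CPM (118 to 128) in sc, 109 CPM (104 to 113) in shDCBLD2, 164 CPM (158 to 170) in the library labelled DCBLD2 overexpression and 121 CPM (116 to 127) in the vector library. The library labelled DCBLD2 overexpression was the highest of the 4, and the controls did not differ beyond counting error. Against the vector library its log2 ratio was 0.43 (0.35 to 0.51), and that of shDCBLD2 to sc was -0.18 (-0.26 to -0.09). ERBB2 overlaps MIEN1 and PGAP3 on the opposite strand, with counts equal to 45.4% and 21.8% of those of ERBB2. The sources used here do not say whether strand was used in counting, so the ERBB2 count is uncertain.

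ERBB3 (ENSG00000065361), the partner receptor for NRG1, lies on chromosome 12 from 56473641 to 56497289 and varied most of the 9 genes, with a 7.24-fold range. It had 361 counts in sc (18.5 CPM, 16.6 to 20.5), 55 in shDCBLD2 (2.55 CPM, 1.92 to 3.32), 265 in the library labelled DCBLD2 overexpression (16.1 CPM, 14.2 to 18.1) and 141 in the vector library (7.68 CPM, 6.47 to 9.06). The library with shDCBLD2 was far below all others, and sc and the library labelled DCBLD2 overexpression did not differ beyond counting error. In shDCBLD2 against sc the log2 ratio was -2.81 (-3.29 to -2.44), a 7.24-fold lower level. Of the 13966 genes with a mean of at least 1 CPM, 40 had a ratio that low, ERBB3 included. The library labelled DCBLD2 overexpression stood above its control at 1.05 (0.76 to 1.37). However, the controls themselves differed, with the empty vector at -1.25 (-1.56 to -0.98) to sc. With sc as the control of the library labelled DCBLD2 overexpression, the log2 ratio of ERBB3 turned to -0.20 (-0.44 to 0.03), and with the empty vector as the control of shDCBLD2 it was -1.55 (-2.07 to -1.13). ERBB3 was thus lowest in shDCBLD2 with either control, while its rise in the other comparison rests on the empty vector library.

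Epithelial markers moved in the same direction as ERBB3 in both DCBLD2 comparisons. All 5 were lower in shDCBLD2 than in sc, CDH1 (E-cadherin) by the most, with a log2 ratio of -2.38 (-2.61 to -2.18), followed by EPCAM with -1.37 (-2.16 to -0.76) and KRT19 with -1.14. All 5 were higher in the library labelled DCBLD2 overexpression, compared to the vector library, with log2 ratios of 0.56 to 1.53. With sc as control they parted from ERBB3, which was at -0.20 there. All 5 were above sc, from KRT8 with 8547 against 8208 CPM to KRT19 with 183 against 62.8 CPM. Their summed level was 13496 CPM in sc, 7635 CPM in shDCBLD2, 14698 CPM in the library labelled DCBLD2 overexpression and 9566 CPM in the vector library, the same order as ERBB3 but for the highest 2 libraries. Most of that sum is KRT8 and KRT18. Between the controls, where ERBB3 was at -1.25, KRT8 was at -0.55, KRT18 at -0.43 and CDH1 at -0.24. KRT19 and EPCAM did not differ beyond counting error there. The part of these genes in the ERBB3 values was not tested. Among the genes whose pattern over the 4 libraries was close to that of ERBB3 was SLC23A1, a vitamin C transporter, with a root mean square difference of 0.19 in centred log2 CPM.

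**Figure D1:**
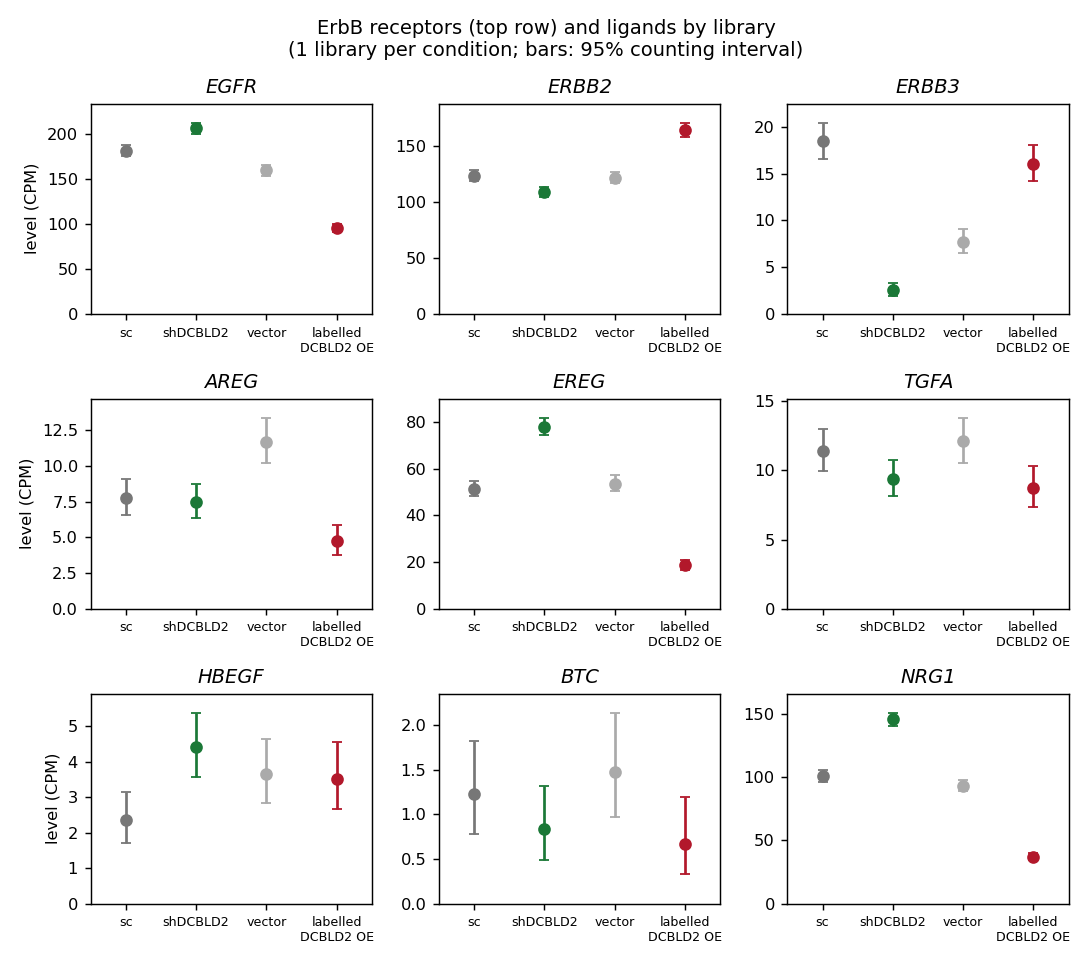
Level in CPM (vertical axis, from 0) of each receptor (top row) and ligand in the 4 libraries (horizontal axis); points are single libraries and bars are 95% counting intervals. ERBB3 is lowest in shDCBLD2 at 2.55 CPM, while EREG and NRG1 are highest there and lowest in the library labelled DCBLD2 overexpression.

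NRG1 and EREG were the most abundant ligand transcripts. The FPKM of NRG1 was 13.47 in sc, 19.03 in shDCBLD2, 4.81 in the library labelled DCBLD2 overexpression and 11.94 in the vector library. EREG followed with 9.22, 13.66, 3.22 and 9.2 in the same order, and AREG with 4.83, 4.54, 2.85 and 6.97. TGFA was between 1.75 and 2.39, HBEGF between 0.8 and 1.46, and BTC between 0.24 and 0.51.

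NRG1 (ENSG00000157168), the ligand of ERBB3, lies on chromosome 8 from 31496902 to 32622548. NRG1 stood at 101 CPM (1970 counts, 96.3 to 105.2) in sc, 146 CPM (3139 counts, 140 to 151) in shDCBLD2, 37.0 CPM (611 counts, 34.1 to 40.1) in the library labelled DCBLD2 overexpression and 93.2 CPM (1711 counts, 88.8 to 97.7) in the vector library. The controls were close to each other, with shDCBLD2 above them and the library labelled DCBLD2 overexpression below. Against its control, NRG1 there had a log2 ratio of -1.33 (-1.47 to -1.20), a 2.52-fold lower level. For shDCBLD2 against sc the ratio was 0.53 (0.45 to 0.61). Between the controls it was -0.11 (-0.21 to -0.02). NRG1 and its receptor ERBB3 therefore stood in opposite order in the libraries with shDCBLD2 and labelled DCBLD2 overexpression.

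EREG (ENSG00000124882), epiregulin, lies on chromosome 4 from 75230860 to 75254468. It had 1007 counts in sc (51.5 CPM, 48.3 to 54.8), 1682 in shDCBLD2 (78.0 CPM, 74.3 to 81.8), 306 in the library labelled DCBLD2 overexpression (18.5 CPM, 16.5 to 20.7) and 984 in the vector library (53.6 CPM, 50.3 to 57.1). The controls did not differ beyond counting error (log2 ratio 0.06, -0.07 to 0.19). The library labelled DCBLD2 overexpression had a ratio of -1.53 (-1.72 to -1.35) to the empty vector, the lowest of the 9 genes there. Of the 9155 genes with a mean of at least 10 CPM, only 31 others had a ratio as low. In shDCBLD2 the ratio to sc was 0.60 (0.49 to 0.71). Of all pairs of members, EREG and NRG1 had the most similar pattern over the 4 libraries, with a root mean square difference of 0.076 in centred log2 CPM. The next pair, AREG and BTC, had 0.18.

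AREG (ENSG00000109321), amphiregulin, starts 56.4 kb beyond the end of EREG, from 75310851 to 75320726. It stood at 7.77 CPM (152 counts, 6.58 to 9.11) in sc, 7.46 CPM (161 counts, 6.36 to 8.71) in shDCBLD2, 4.73 CPM (78 counts, 3.74 to 5.90) in the library labelled DCBLD2 overexpression and 11.7 CPM (215 counts, 10.2 to 13.4) in the vector library. The empty vector was highest and the library labelled DCBLD2 overexpression lowest, and sc and shDCBLD2 did not differ beyond counting error. Against the empty vector the log2 ratio was -1.29 (-1.70 to -0.93), but the empty vector was itself above sc by 0.59 (0.29 to 0.90), and with sc as control the ratio was -0.70 (-1.13 to -0.31). In shDCBLD2 the ratio to sc was -0.06 (-0.39 to 0.27), so AREG was not seen to share the higher level of its neighbour EREG there. The deposited table also lists AREGB, a near-identical copy, with 5 counts in sc, 3 in shDCBLD2, 1 in the library labelled DCBLD2 overexpression and 0 in the vector library. How reads matching both copies were counted is not given in the sources used here, so the AREG count is uncertain.

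The remaining EGFR ligands were less abundant. TGFA (ENSG00000163235), transforming growth factor alpha, on chromosome 2 from 70674412 to 70781325, had 223 counts in sc, 202 in shDCBLD2, 144 in the library labelled DCBLD2 overexpression and 222 in the vector library, that is 11.4, 9.36, 8.72 and 12.1 CPM. Its controls did not differ beyond counting error, and the ratio of the library labelled DCBLD2 overexpression to the empty vector was -0.47 (-0.78 to -0.16). In shDCBLD2 it was -0.28 (-0.57 to -0.00246), at the edge of counting error. HBEGF (ENSG00000113070), heparin-binding EGF-like growth factor, on chromosome 5 from 139712428 to 139726216, had 46, 95, 58 and 67 counts in the same order, or 2.35, 4.40, 3.51 and 3.65 CPM. Here sc was lowest and shDCBLD2 highest, with a log2 ratio of 0.88 (0.38 to 1.45). The empty vector was also above sc, by 0.61 (0.07 to 1.21), and no neighbours in the order of the 4 libraries differed beyond counting error. BTC (ENSG00000174808), betacellulin, on chromosome 4 from 75669969 to 75719896, had 24, 18, 11 and 27 counts, again in that order, and reached 1 CPM in 2 of the 4 libraries, sc and the empty vector. Its ratio of -1.02 to the empty vector in the library labelled DCBLD2 overexpression had an interval of -2.30 to -0.08, and no neighbours in its order differed beyond counting error.

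NRG1, EREG and AREG, the most abundant ligands, were lower in the library labelled DCBLD2 overexpression, a library in which the DCBLD2 transcript was also below its control. A gene was called when it differed at least 2-fold with an interval that excluded no change, over the 13966 genes with a mean of at least 1 CPM. All 9 members passed that filter, BTC through sc and the empty vector, where it was higher. Of the 6 ligands, AREG, EREG and NRG1 were called lower against the empty vector and 0 higher, and of the 3 receptors ERBB3 was called higher. BTC also met the rule, with 11 against 27 counts, but is not counted in support, since it passed the filter through libraries where it was high. Over all genes, 5.29% were called lower and 6.39% higher in that comparison. With BTC, 4 members were called lower, a number that became 3 at a mean of at least 5 CPM or with counts drawn down to the smallest library, and 2 with sc as control or after the median of genes of like GC content was subtracted. At any size, intervals excluded no change for 6 lower and 2 higher members, against 36.0% and 31.9% of all genes, and HBEGF alone was within counting error. The 6 lower members include BTC, again not counted in support, beside EGFR, AREG, EREG, TGFA and NRG1. The median log2 ratio of the 6 ligands, BTC included, was -1.16, against -0.04 over all genes. That median lies between AREG at -1.29 and BTC at -1.02, so it is not counted in support either. Summed FPKM of the 6 ligands was 31.12 in sc, 40.88 in shDCBLD2, 14.03 in the library labelled DCBLD2 overexpression and 32.2 in the vector library. For the 5 ligands of EGFR alone the sums were 17.65, 21.85, 9.22 and 20.26.

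In shDCBLD2 against sc, 1 of the 9 members was called lower (ERBB3) and 0 higher, where 5.65% of all genes were called lower and 1.17% higher. Intervals excluded no change at any size for 4 higher members (EGFR, EREG, HBEGF and NRG1; 29.8% of all genes) and for 3 lower ones (ERBB2, ERBB3 and TGFA; 27.1% of all genes). AREG and BTC were within counting error. The ligand median was 0.24, against 0.01 over all genes. Between the controls, 1 of 9 was called lower in the empty vector than in sc (ERBB3) and 0 higher, where 1.89% of all genes were called lower and 2.21% higher. At any size, 2 members (AREG and HBEGF) were higher and 3 (EGFR, ERBB3 and NRG1) lower, against 26.7% and 27.8% of all genes. EGFR, EREG and NRG1 were thus lower in the library labelled DCBLD2 overexpression and higher in shDCBLD2, each with intervals excluding no change, although DCBLD2 itself was lower than its control in both. With the control libraries exchanged, these 3 genes kept both directions.

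**Figure D2:**
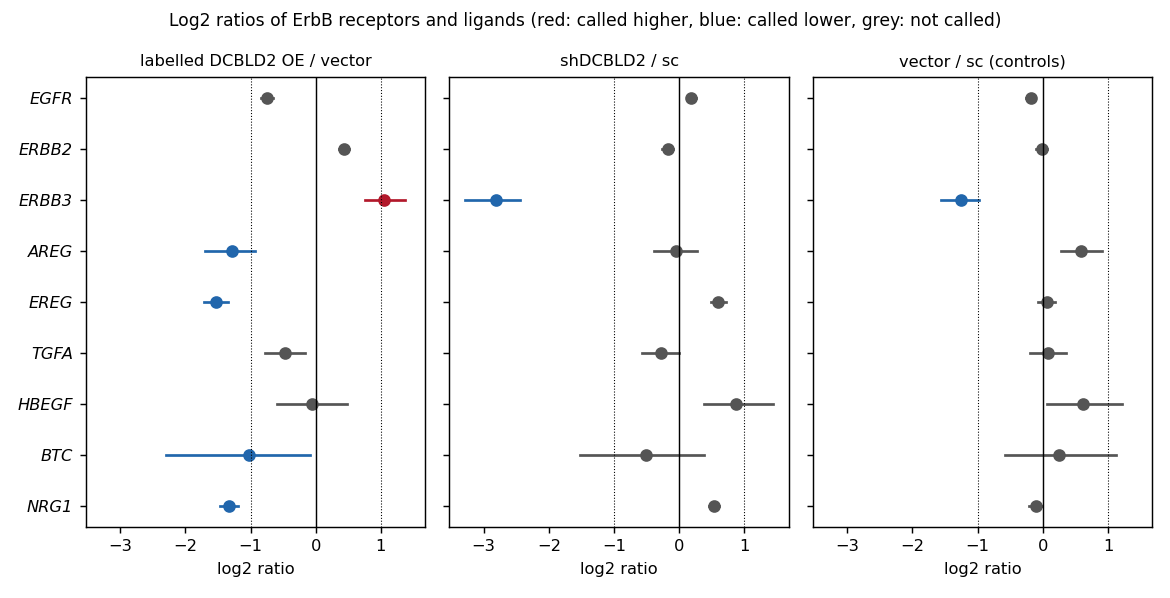
Log2 ratio (horizontal axis) of each receptor and ligand in the library labelled DCBLD2 overexpression relative to the vector library, in shDCBLD2 against sc, and between the controls; lines are 95% counting intervals and dotted lines mark 2-fold. In the left panel AREG, EREG, NRG1 and the scarce BTC are called lower and ERBB3 higher, and in the middle panel ERBB3 alone is called, at -2.81.

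The composition of the family differed between libraries. Among the receptors, EGFR made up 49.98% of the summed FPKM in sc, 59.6% in shDCBLD2, 29.3% in the library labelled DCBLD2 overexpression and 49.3% in the vector library. ERBB2 made up 42.4%, 39.3%, 63.3% and 47.1% in the same order, and ERBB3 7.58%, 1.12%, 7.41% and 3.55%. The receptor sum itself varied little, from 24.5 to 28.75 FPKM. Among the ligands, NRG1 held the largest share in every library, from 34.3% in the library labelled DCBLD2 overexpression to 46.6% in shDCBLD2. In the library labelled DCBLD2 overexpression, TGFA and HBEGF made up 12.5% and 8.27% of the ligand sum, against 7.42% and 3.70% with the empty vector, while their own levels were not higher.

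**Figure D3:**
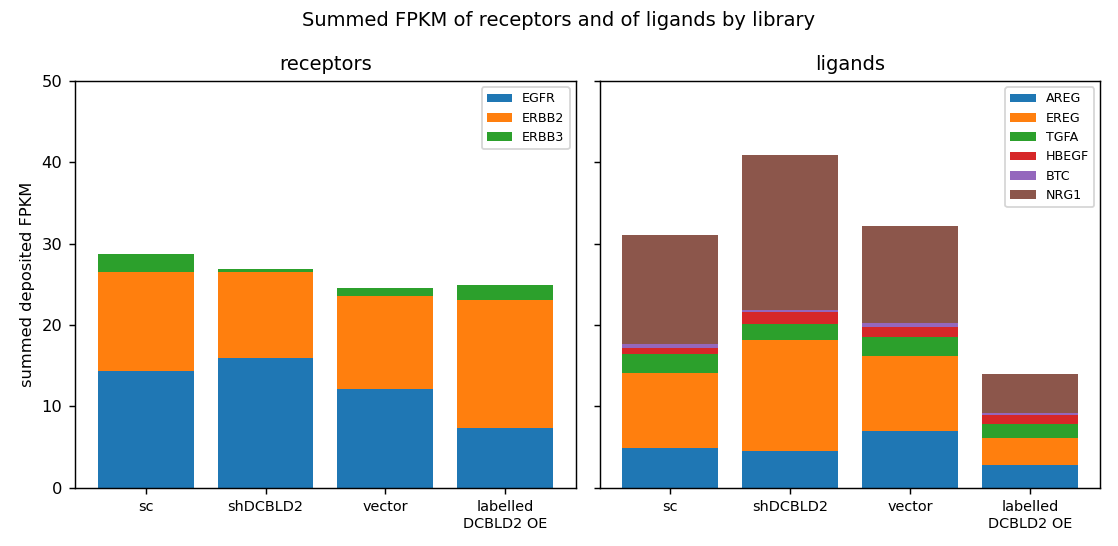
Deposited FPKM (vertical axis, from 0) summed over the 3 receptors (left) and the 6 ligands (right) in each library, with the part of each gene in color. The receptor sum stays between 24.5 and 28.75, and the ligand sum ranges from 14.03 in the library labelled DCBLD2 overexpression to 40.88 in shDCBLD2.

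GC content moved with the ratios of the library labelled DCBLD2 overexpression. Over the 13690 genes with a GENCODE 29 transcript (98.0% of those past the filter), the Spearman rank correlation of the log2 ratio with GC content was 0.56 in that comparison, -0.20 in shDCBLD2 against sc and 0.30 between the controls. With transcript length the correlation was -0.07, -0.01 and -0.40 in the same order, so between the controls it was larger in size than with GC content. These values are a description across genes, which share libraries and are not replicates. In the bin of lowest GC content the median log2 ratio was -0.63 for the library labelled DCBLD2 overexpression, and in the highest it was 0.28. EREG, with 36.1% GC, is at percentile 3.01 of these genes, BTC has 40.2%, NRG1 43.9%, AREG 45.3%, TGFA 45.9%, EGFR 47.5%, HBEGF 50.9%, ERBB3 52.0% and ERBB2 57.5%. After the median of genes of like GC content was subtracted, a step chosen after seeing the data, EREG was at -0.90 and BTC at -0.54, both short of 2-fold. NRG1 was at -1.02 and AREG at -1.09, still past it, ERBB3 was at 0.98, just short of it, EGFR at -0.65 and ERBB2 at 0.18. All 9 members kept their direction in this comparison. In shDCBLD2 the same step left ERBB3 at -2.81, EREG at 0.46, NRG1 at 0.48 and HBEGF at 0.88.

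Other receptors and ligands of the family were scarce, except for NRG2. ERBB4, the remaining receptor, had 0 counts in 3 libraries and 5 in the library labelled DCBLD2 overexpression. EGF had between 8 and 19 counts, EPGN at most 2, and NRG3 at most 1. NRG2 had 57 counts in sc, 45 in shDCBLD2, 147 in the library labelled DCBLD2 overexpression and 100 in the vector library. These were 2.91, 2.09, 8.91 and 5.45 CPM, and NRG2 is not among the 6 ligands summed above. In the library labelled DCBLD2 overexpression its log2 ratio was 0.70 (0.33 to 1.09), while the highest of those 6 ligands was HBEGF at -0.05. NRG4 had 19, 14, 28 and 13 counts, with a log2 ratio of 1.14 (0.26 to 2.33). Of the 6 genes, 2 passed the filter, NRG4 only through the library labelled DCBLD2 overexpression, where it reached 1.70 CPM, and its call there is therefore not counted.

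Genes for the release of the ligands were followed as a list. Of 10 sheddases and their regulators, all past the filter, 0 were called in the library labelled DCBLD2 overexpression relative to the vector library. Over all genes 5.29% were called lower and 6.39% higher there, so 0 of 10 is near the background. The list median was -0.09, against -0.04 over all genes. ADAM17, the main sheddase of several EGFR ligands, had -0.46 (-0.64 to -0.28), and ADAM10 -0.47 (-0.59 to -0.34). The highest was ADAM15 at 0.44 (0.37 to 0.50), and the lowest NRDC, a peptidase that enhances shedding, at -0.70 (-0.82 to -0.59). In shDCBLD2 against sc, 1 of 10 was called: ADAM19, a metalloprotease that can cleave neuregulin, with 947 counts in sc and 2164 in shDCBLD2 (1.05, 0.94 to 1.16). Over all genes 1.17% were called higher. The level of ADAM19 was 100.3 CPM in shDCBLD2 and 52.95 CPM in the vector library, so with that control it was short of 2-fold. The lowest ratio to sc was that of ADAM15 at -0.33 (-0.40 to -0.25).

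Among 19 genes that restrain or traffic ErbB receptors, 18 passed the filter, with medians of -0.08 in the library labelled DCBLD2 overexpression and -0.11 in shDCBLD2. LRIG1, a membrane protein that promotes ErbB receptor degradation, was called in both. It had 169 counts in sc, 79 in shDCBLD2, 440 in the library labelled DCBLD2 overexpression and 157 in the vector library. Its log2 ratio was 1.63 (1.37 to 1.91) in the library labelled DCBLD2 overexpression and -1.22 (-1.64 to -0.84) in shDCBLD2 against sc, and its controls did not differ beyond counting error, unlike those of ERBB3. None of the other 17 was called in either comparison. Over all genes, 6.39% were called higher in the library labelled DCBLD2 overexpression and 5.65% lower in shDCBLD2, so 1 of 18 is near the background. PTPRJ, a phosphatase that acts on EGFR, was lowest in the library labelled DCBLD2 overexpression at -0.996 (-1.12 to -0.87). ERRFI1 (MIG6), a feedback inhibitor of EGFR, was at 0.17 (0.06 to 0.28) there and at -0.47 (-0.58 to -0.36) in shDCBLD2.

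Of 26 adaptors and proximal effectors, 25 passed the filter. Called were 2 lower and 1 higher in the library labelled DCBLD2 overexpression, where 5.29% and 6.39% of all genes were called, so the counts are near the background. The list median was -0.04, as over all genes. SOS2, an exchange factor for RAS, was at -1.28 (-1.68 to -0.93), PIK3CA, a catalytic subunit of PI3K, at -1.11 (-1.71 to -0.61), and PIK3R3, a regulatory subunit, at 1.63 (1.18 to 2.19). In shDCBLD2 the single call was GRB7, an adaptor whose gene lies close to ERBB2, with 381 counts in sc and 126 in shDCBLD2 (-1.72, -2.04 to -1.44). Over all genes 5.65% were called lower in that comparison, so this count is also near the background. ERBB2 was at -0.18 in the same comparison.

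**Figure D4:**
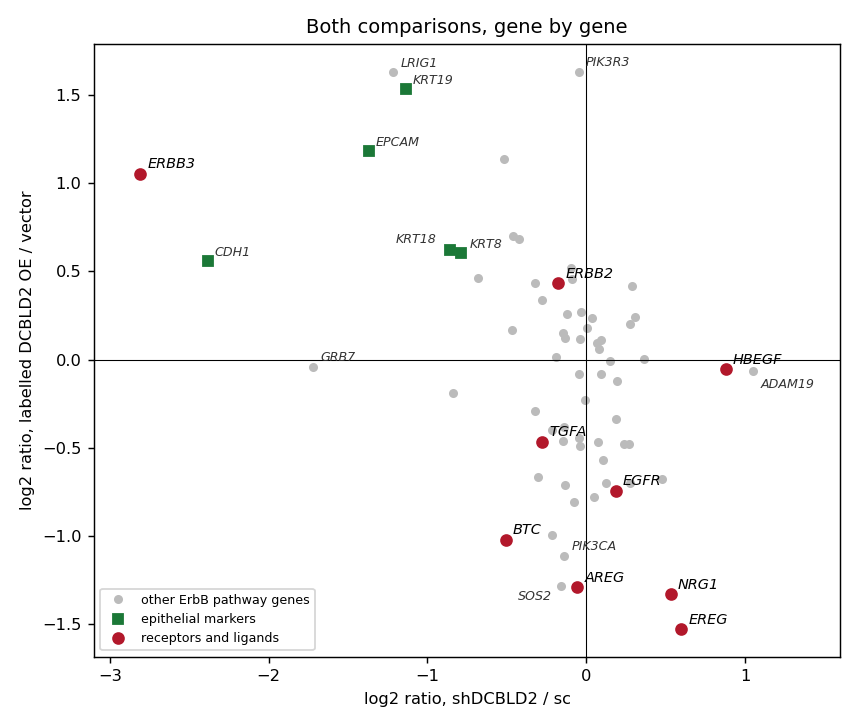
Log2 ratio in shDCBLD2 against sc (horizontal axis) and in the library labelled DCBLD2 overexpression relative to the vector library (vertical axis) for receptors and ligands (red), epithelial markers (green squares) and other ErbB pathway genes past the filter (grey). ERBB3, LRIG1 and the 5 epithelial markers lie at upper left, EREG, NRG1 and EGFR at lower right.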

How the data were processed

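RNA of 4 A549 libraries was sequenced from poly(A) RNA per the labels. The authors deposited raw read counts per gene and FPKM values, which equal the counts divided by exonic gene size in kilobases and by the library total. The aligner, the counting program and the use of strand are not given in the sources used here. The submitters' processing notes name mm9, a mouse build, whereas gene identifiers and symbols are human. Files of the 4 samples hold the same values as the series table. Counts were scaled with TMM factors of edgeR 4.0.16 (R 4.3.3), which were 1.02 for sc, 1.00 for shDCBLD2, 0.981 for the empty vector and 0.994 for the library labelled DCBLD2 overexpression. DESeq2 1.42.0 size factors were an alternative. Python 3.11.15, scipy 1.17.1 and pandas 2.3.3 were used. Log2 ratios used a prior count of 2, and intervals of ratios are Clopper-Pearson at 95%, those of levels exact Poisson. A gene was called at 2-fold or more with an interval excluding no change, among genes with a mean of at least 1 CPM. Without replicates no test was made. Genes of different length were compared by the deposited FPKM. GC content was taken from the longest GENCODE 29 transcript, in 20 bins. Calling was tested on simulated counts that held counting error only, so that test does not cover variation between libraries. The members and lists were chosen with earlier results of these data known. Named were all members, list genes called in either DCBLD2 comparison, otherwise the extremes of a list, and the 2 genes with the most similar pattern per member; other genes named were chosen after their values were seen. Some items the naming rule covers are not reported here. NRDC was found under an older symbol, and PECAM1 was not matched.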

Additional observations from a re-analysis of the deposited data

How the results depend on the processing

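No paired analysis was possible because each condition has 1 library, and for the same reason no library could be left out. The 27 log2 ratios of members stayed within their counting intervals under DESeq2 size factors, library totals, prior counts of 0.5 and 5 and counts drawn down to the smallest library, as did the 3 ratios of AREG when summed with AREGB; at most 1 value per setting changed sign, each of them within counting error. The choice of control mattered most. With sc in place of the empty vector, in the library labelled DCBLD2 overexpression ERBB3 turned to -0.20, EGFR was at -0.93, AREG at -0.70 and HBEGF at 0.56, and 0 members were called higher and 2 lower, against 4 lower with the empty vector. With a mean of at least 5 CPM, or drawn down, 3 were called lower, since BTC was not tested or was at -0.90. With the empty vector as control for shDCBLD2, EGFR was at 0.37, ERBB3 at -1.55, AREG at -0.64, HBEGF at 0.26 and NRG1 at 0.64. Subtracting the median of genes of like GC content, chosen after seeing the data, moved EGFR to -0.65, ERBB2 to 0.18, EREG to -0.90 and NRG1 to -1.02 in the library labelled DCBLD2 overexpression, with 0 members called higher and 2 lower. The same step gave ERBB2 -0.066 and EREG 0.46 in shDCBLD2, and EGFR -0.11 and EREG 0.19 between the controls. At 1.5-fold, 2 members were called higher in shDCBLD2 and 2 in the empty vector against sc. Of the pathway list genes, 5 were then called higher and 10 lower in the library labelled DCBLD2 overexpression, 4 lower in shDCBLD2, and 2 higher and 5 lower between the controls. With a mean of at least 5 CPM, 1 list gene was called higher in the library labelled DCBLD2 overexpression, against 3. Both that 3 and the 5 at 1.5-fold include NRG4, whose call is not counted in support. With the other control, 7 list genes were called lower there and 0 higher in shDCBLD2. Between the controls, 1 was called higher without the filter and 1 lower with library totals. The 36 shares of summed FPKM stayed within counting error in all 60 alternatives. That outcome was all but fixed, since library scaling cancels within a share and AREGB had at most 5 counts. It is not counted in support. Why these values moved was not tested beyond what each alternative changes. Depth limits BTC most, with 11 to 27 counts.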

Other observations

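For each receptor and ligand other than ERBB3, the 2 genes of at least 10 CPM with the most similar pattern over the 4 libraries were looked up, by the root mean square difference of centred log2 CPM. For EGFR these were VPS26A, a part of the retromer that sorts membrane proteins, at 0.014, and TRNT1, which completes the ends of transfer RNAs, at 0.020. ERBB2 was closest to ZNF687 at 0.015 and to NCSTN, a subunit of the gamma-secretase, at 0.017. NRG1 was closest to NOC3L at 0.031 and to GEN1, a nuclease that resolves DNA junctions, at 0.046, and EREG to PBDC1 at 0.070 and to RARS, an aminoacyl-tRNA synthetase, at 0.072. The nearest genes to AREG were ATXN10 at 0.063 and LACTB at 0.069. TGFA was nearest to FAM120C at 0.021 and to EXOC4, a subunit of the exocyst, at 0.028. HBEGF was nearest to SAMD4A at 0.058 and to STC2, a secreted glycoprotein, at 0.078, and BTC to ABCG2, a drug efflux pump, at 0.069 and to ARHGEF28 at 0.075. These values are a description over 4 libraries.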
